A study of Mus musculus with 9 samples.

Results

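Gene levels in the lungs of mice given lipopolysaccharide (LPS) were compared with those of mice given saline, on day 5 after the instillation. The comparison rests on 6 of the 9 sequenced libraries, 3 from LPS mice and 3 from control mice, and covers the 15121 autosomal and mitochondrial genes among the 15636 genes tested. All animals are labelled as male C57BL/6 mice of 6 to 8 weeks, and the series' design text calls the libraries biological replicates. Under tribromoethanol anaesthesia (1.25%, 20 mL/kg, shared by every group), the trachea received either sterile saline (control) or LPS at 2 mg/kg. From the following day on, mice were gavaged daily with a decoction of the herbal formula Renshen Baidu Powder (RSBD) or with its vehicle, which for the LPS and control groups the labels name only in the shared protocol. The other 3 libraries, from LPS mice given RSBD, entered the fit only to help estimate the spread.

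The control libraries differed from the others in a factor that the labels do not name. Reads of chromosome Y genes numbered 6, 7 and 9 in control libraries 1 to 3, against 8839, 8794 and 8278 in LPS libraries 1 to 3, although all mice are labelled male. LPS and whatever this factor stands for cannot be told apart in any result that follows, and genes of chromosomes X and Y are left out for that reason. The labels give no batch, and each group is a single instillation and a single time.

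LPS, the endotoxin of Gram-negative bacteria, is sensed by a Toll-like receptor on macrophages and epithelial cells. In the lung it draws in neutrophils and then monocytes, which engulf debris and break it down in lysosomes, acidic organelles filled with hydrolases. Repair of the air-space lining follows, and is directed by growth factor, Wnt and transforming growth factor beta signals exchanged between epithelium, endothelium and mesenchyme. Airway, surfactant, cytokine, interferon, T cell, B cell, macrophage, clock, retinoid, matrix and cell cycle genes form 47 themes that were set aside here, and what follows describes the genes outside them.

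Total counts ranged from 27789513 to 31003253 in control libraries and from 26959662 to 31227237 in LPS libraries. Mitochondrial genes took 2.21 to 2.46% of control counts and 2.65 to 3.24% of LPS counts. The defining lung markers were all present at high level: Scgb1a1 of club cells averaged 30335 counts per 1000000 (CPM) in the control group and 22761 CPM in the LPS group, and Sftpc of alveolar type 2 cells 8304 and 9152 CPM. Of 9 such markers, the endothelial genes Cdh5 (log2 fold change 0.53, adjusted p = 0.00906) and Pecam1 (0.34, adjusted p = 0.0382) were higher and the ciliated cell factor Foxj1 was lower (-0.96, adjusted p = 0.0453), while the leukocyte gene Ptprc had a log2 fold change of 0.59 that missed the threshold (adjusted p = 0.0862). In bulk tissue, fewer cells of a type and less RNA per cell cannot be told apart.

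Of the 15121 genes, 2647 (17.5%) passed edgeR's quasi-likelihood F test at an adjusted p under 0.05, 1324 (8.76%) higher and 1323 (8.75%) lower in LPS lungs. These percentages are the background for every count below. The groups' values did not overlap in 5753 genes (38%), nor in 1305 of the 1324 higher and 1314 of the 1323 lower calls. Most changes were modest: the median absolute log2 fold change was 0.63 among higher and 0.58 among lower calls, and 324 higher and 257 lower calls were at least 2-fold. Of all calls 75.7% lay outside the set-aside themes, where 2004 of 12149 genes (16.5%) were called, 994 higher and 1010 lower. The even split depended on the scale, since on log2(TPM + 1) limma called 680 genes higher and 1313 lower, with the median gene at -0.093. The number of calls also depended on single libraries: it was 754 without LPS 2, 1580 without LPS 3, 858 without control 2 and 964 without control 3, and higher calls alone were 869 without control 1. Leaving out LPS 1 gave 2770. In all 9 fits that each left out 1 library 602 genes were called, 304 higher and 298 lower. Of the 87 family counts above 0 given below, 85 moved by over 1.5 times without at least 1 library, and the libraries concerned are named with the larger counts.

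**Figure D1:**
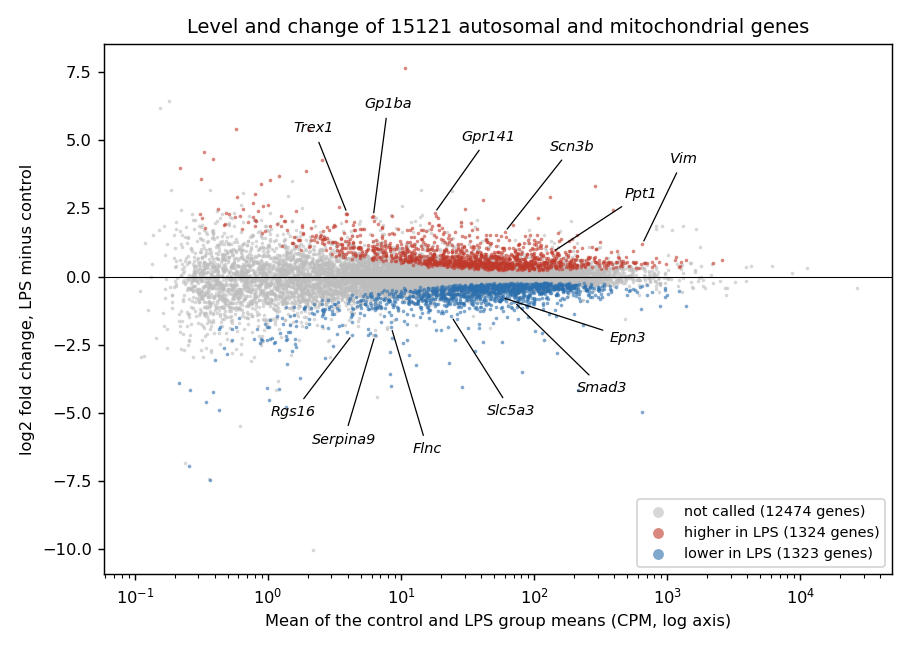
Each point is 1 of the 15121 genes, placed by the mean of its control and LPS group means (CPM, log axis) and its log2 fold change (LPS minus control), in red where called higher, in blue where called lower and in grey where not called. The 1324 higher and 1323 lower genes lie on both sides of 0 over the whole range of levels, and 12 genes named in the text are marked.

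The largest increases outside the set-aside themes included receptors of leukocytes and 4 genes known from platelets. Among called genes with non-overlapping groups and at least 5 CPM in LPS lungs, the 12 with the largest fold changes were Gpr141, Trex1, Ankrd22, Gp1ba, Gp9, Fdx2, Evi2b, Clec4n, Gp5, Ltb4r1, Nrcam and Slc6a4. Gpr141 (chr13:19749682-19824257), an orphan G protein-coupled receptor, measured 5.74, 4.11 and 7.97 CPM in control libraries and 38.5, 31.6 and 19.3 CPM in LPS libraries (log2 fold change 2.33 ± 0.43 SE, adjusted p = 0.011). Its lowest LPS value, in library 3, was more than 2 times the highest control value. Trex1 (chr9:109057933-109059734), the exonuclease that removes DNA from the cytosol, measured 1.27, 1.21 and 1.49 CPM in control libraries and 6.32, 8.16 and 5.2 CPM in LPS libraries (log2 fold change 2.31 ± 0.35 SE, adjusted p = 0.00476). Ltb4r1 (chr14:55765962-55768494), the high-affinity receptor for the chemoattractant leukotriene B4, measured 7.04, 3.53 and 5.69 CPM in control libraries and 25.2, 19.8 and 11.1 CPM in LPS libraries (log2 fold change 1.79 ± 0.39 SE, adjusted p = 0.0174). For both genes all LPS libraries lay above all control libraries, with LPS 3 the lowest of its group. Fdx2 (chr9:21067520-21073614), a mitochondrial ferredoxin needed to build iron-sulfur clusters, measured 1.83, 2.32 and 1.35 CPM in control libraries and 3.83, 10.5 and 6.29 CPM in LPS libraries (log2 fold change 1.9 ± 0.40 SE, adjusted p = 0.0142). Nrcam (chr12:44328885-44601964), a neuronal cell adhesion molecule, measured 2.71, 4.81 and 2.24 CPM in control libraries and 8.17, 13.1 and 12.2 CPM in LPS libraries (log2 fold change 1.77 ± 0.42 SE, adjusted p = 0.0247). The calls of Ltb4r1, Fdx2 and Nrcam were not made in every fit that left out a library: Ltb4r1 was lost without control 2, control 3 or LPS 2, Fdx2 without control 3 or LPS 2 and Nrcam without control 1, control 3, LPS 2 or LPS 3, whereas Gpr141 and Trex1 were called in all 9 such fits.

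The remaining large increases were less even between mice. Clec4n, the C-type lectin Dectin-2 that recognises fungal mannans, measured 7.71, 10.7 and 3.81 CPM in control libraries and 12.8, 39.9 and 26.7 CPM in LPS libraries (log2 fold change 1.83 ± 0.49 SE, adjusted p = 0.0362). Evi2b, a leukocyte membrane protein encoded in an intron of Nf1, measured 6.93, 19.8 and 10.3 CPM in control libraries and 49.8, 22.7 and 60.8 CPM in LPS libraries (log2 fold change 1.84 ± 0.55 SE, adjusted p = 0.0488). Ankrd22, an ankyrin repeat protein, measured 1.79, 0.669 and 1.49 CPM in control libraries and 7.28, 8.33 and 3.56 CPM in LPS libraries (log2 fold change 2.28 ± 0.69 SE, adjusted p = 0.0492). In these genes the groups did not overlap, and in Clec4n and Evi2b the lowest LPS library stood close to the highest control library. Slc6a4, the serotonin transporter that platelets and pulmonary endothelium carry, measured 8.83, 4.39 and 9.68 CPM in control libraries and 41.6, 16.8 and 18.9 CPM in LPS libraries (log2 fold change 1.75 ± 0.43 SE, adjusted p = 0.0283), with LPS 1 more than 2 times the other LPS libraries. Each of these calls depended on several libraries: Clec4n was lost without control 1, control 2, control 3, LPS 2, LPS 3, LPS plus RSBD 1 or LPS plus RSBD 3, Evi2b without each of the 9 libraries in turn, Ankrd22 without control 1, control 2, control 3, LPS 1, LPS 2, LPS 3 or LPS plus RSBD 1, and Slc6a4 without control 1, control 2, control 3 or LPS 1.

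By the same rule, with at least 5 CPM in control lungs, the 12 largest decreases were in Serpina9, Entpd8, Rgs16, Avil, Ky, Slc28a3, Gfpt2, Ppp1r3a, Flnc, Dmrt2, Grip2 and Unc79, which share no single function. Gfpt2 (chr11:49794178-49838613), an isoform of the rate-limiting enzyme of the hexosamine pathway, measured 15.5, 37.8 and 34.7 CPM in control libraries and 8.17, 5.52 and 8.9 CPM in LPS libraries (log2 fold change -1.96 ± 0.35 SE, adjusted p = 0.00921). Avil (chr10:127000709-127020994), an actin-bundling protein of tuft cells and sensory neurons, measured 3.55, 5.19 and 7.29 CPM in control libraries and 1.71, 1.31 and 0.727 CPM in LPS libraries (log2 fold change -2.1 ± 0.41 SE, adjusted p = 0.0117). Dmrt2 (chr19:25672411-25678991), a doublesex-type transcription factor, measured 5.17, 5.51 and 5.44 CPM in control libraries and 1.0, 1.7 and 1.82 CPM in LPS libraries (log2 fold change -1.83 ± 0.33 SE, adjusted p = 0.00837). In all 3 genes each LPS library was below each control library, and control 1 was the lowest control for Gfpt2 and Avil. Ky (chr9:102505750-102546239), a muscle protein that binds filamin C, measured 6.72, 9.42 and 11.9 CPM in control libraries and 3.08, 2.02 and 1.64 CPM in LPS libraries (log2 fold change -2.06 ± 0.37 SE, adjusted p = 0.00885). Flnc (chr6:29433256-29461883), filamin C itself, measured 6.3, 14.9 and 18.4 CPM in control libraries and 3.01, 3.33 and 4.62 CPM in LPS libraries (log2 fold change -1.85 ± 0.48 SE, adjusted p = 0.033). Filamin C and Ky were both lower in every LPS library, as the rule on overlap required. The call of Flnc was lost without control 2, control 3, LPS 1, LPS 2 or LPS 3, whereas those of Ky, Gfpt2, Avil and Dmrt2 were made in all 9 fits that left out 1 library.

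Rgs16 (chr1:153740349-153745468), which ends signalling by G proteins, measured 5.59, 7.1 and 8.33 CPM in control libraries and 0.409, 2.68 and 1.64 CPM in LPS libraries (log2 fold change -2.14 ± 0.60 SE, adjusted p = 0.0407), and its call was lost without control 1, control 2, control 3, LPS 1, LPS 2 or LPS 3. Entpd8 (chr2:25080304-25085716), an ectoenzyme that degrades extracellular nucleotides, measured 8.3, 10.9 and 8.36 CPM in control libraries and 1.78, 1.31 and 3.12 CPM in LPS libraries (log2 fold change -2.15 ± 0.48 SE, adjusted p = 0.018), and was lost without control 2 or LPS 2. Serpina9 (chr12:103994743-104013755), a serpin known from germinal centre B cells, measured 3.8, 12.7 and 14.7 CPM in control libraries and 1.97, 2.48 and 2.54 CPM in LPS libraries (log2 fold change -2.15 ± 0.47 SE, adjusted p = 0.0181), and was lost without control 2, control 3, LPS 2 or LPS 3. None of the groups overlapped, although control 1 of Serpina9 was far below the other controls and near its LPS values. The nucleoside transporter Slc28a3 (-2.03 ± 0.55, lost without control 2, control 3, LPS 1, LPS 2 or LPS 3), the glycogen-targeting phosphatase subunit Ppp1r3a (-1.92 ± 0.54, lost without control 1, control 2, control 3, LPS 2, LPS 3, LPS plus RSBD 1 or LPS plus RSBD 3), the synaptic scaffold Grip2 (-1.77 ± 0.36, lost without control 2 or LPS 2) and the sodium leak channel subunit Unc79 (-1.75 ± 0.35, lost without LPS 2) were lower by log2 fold changes (± SE) of similar size.

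Under the same limits on overlap and level, the genes of smallest p outside the themes had replicates that lay close together, which a small p favours. Scn3b (chr9:40269217-40291618), an auxiliary beta subunit of voltage-gated sodium channels, had the smallest of all and measured 28.1, 31.7 and 28.2 CPM in control libraries and 79.98, 95.5 and 98.6 CPM in LPS libraries (log2 fold change 1.64 ± 0.13 SE, adjusted p = 0.000442). Sh2d1b1 (chr1:170277320-170286769), the adaptor EAT-2 that couples Slam receptors to kinases in natural killer and myeloid cells, measured 6.65, 8.63 and 6.76 CPM in control libraries and 21.9, 24.2 and 24.1 CPM in LPS libraries (log2 fold change 1.67 ± 0.14 SE, adjusted p = 0.000694). Ppt1 (chr4:122836242-122859175), the lysosomal thioesterase that strips palmitate from proteins, measured 96.7, 97.8 and 93.7 CPM in control libraries and 177, 186 and 172 CPM in LPS libraries (log2 fold change 0.89 ± 0.08 SE, adjusted p = 0.0008). For all 3 genes the gap between the groups was more than 2 times the range within either. Plbd1 (chr6:136612070-136661928), a phospholipase-like protein of myeloid granules, measured 56.3, 51.7 and 50.3 CPM in control libraries and 121, 121 and 93.6 CPM in LPS libraries (log2 fold change 1.08 ± 0.11 SE, adjusted p = 0.00197). Vim (chr2:13573927-13582826), vimentin, the intermediate filament of mesenchymal cells and leukocytes, measured 396, 409.6 and 386 CPM in control libraries and 866, 964 and 881 CPM in LPS libraries (log2 fold change 1.19 ± 0.12 SE, adjusted p = 0.00197). Both were far above control in every LPS library, and LPS 3 was the lowest of them for Plbd1.

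Among lower genes the smallest p were those of Slc5a3, Smad3, Camk2n1, Slc26a2 and Epn3. Slc5a3 (chr16:92058322-92087473), which imports the osmolyte myo-inositol, measured 30.4, 39.1 and 35 CPM in control libraries and 11.7, 12.5 and 14 CPM in LPS libraries (log2 fold change -1.45 ± 0.13 SE, adjusted p = 0.0008). Smad3 (chr9:63646767-63757994), the transcription factor activated by transforming growth factor beta receptors, measured 90.6, 102 and 85.5 CPM in control libraries and 51.2, 48.2 and 46.7 CPM in LPS libraries (log2 fold change -0.93 ± 0.08 SE, adjusted p = 0.000825). Camk2n1 (chr4:138454314-138460123), an inhibitor of calmodulin-dependent kinase II, measured 106, 117 and 128 CPM in control libraries and 60.1, 55.1 and 55.1 CPM in LPS libraries (log2 fold change -1.04 ± 0.10 SE, adjusted p = 0.00158). All LPS libraries were well below all controls in these genes. Slc26a2, the sulfate importer on which proteoglycan sulfation depends, measured 115, 119 and 108 CPM in control libraries and 64, 58 and 69.5 CPM in LPS libraries (log2 fold change -0.83 ± 0.09 SE, adjusted p = 0.00198). Epn3 (chr11:94489599-94499974), an endocytic adaptor of epithelia, measured 73.3, 73.1 and 68.3 CPM in control libraries and 39.6, 44.3 and 42.8 CPM in LPS libraries (log2 fold change -0.76 ± 0.08 SE, adjusted p = 0.00198). The 10 genes of smallest p were called in each of the 9 fits that left out 1 library.

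**Figure D2:**
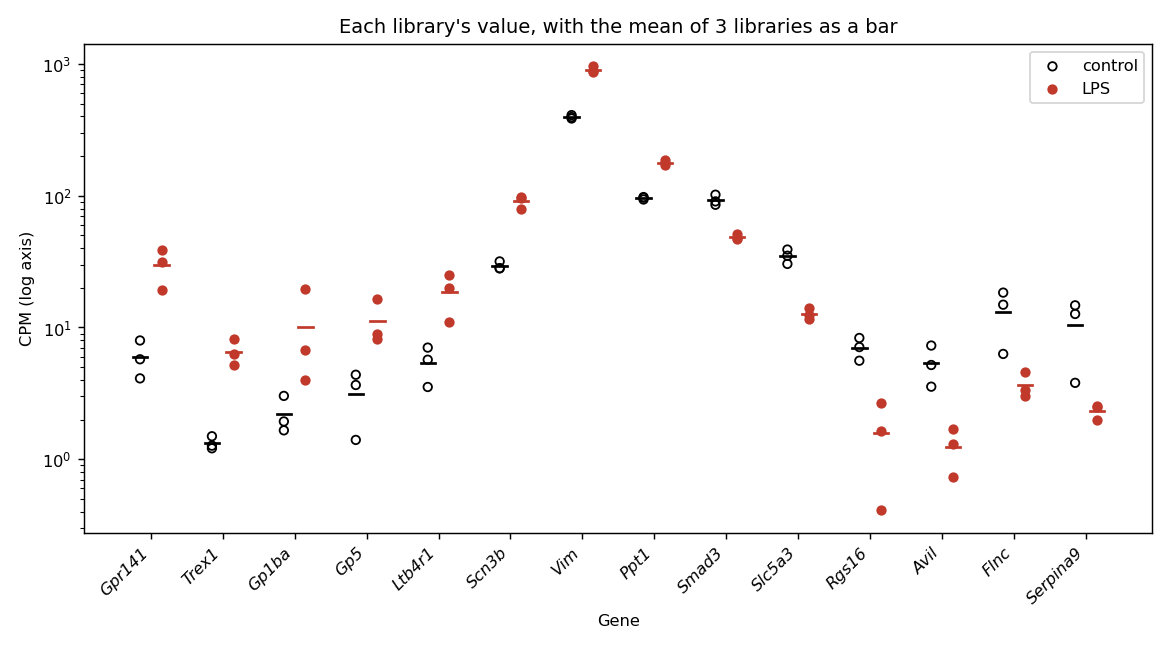
The CPM value (log axis) of each of the 3 control (open circles) and 3 LPS libraries (filled circles) is drawn for 14 genes named in the text, with a bar at each group's mean. The rule that selected the 14 genes required groups without overlap. On the left are 10 genes that were higher or of smallest p, and on the right 4 with large decreases.

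Genes of the lysosome were higher as a group. Of 87 tested members, comprising hydrolases, proteases, membrane proteins and subunits of the proton pump, 35 (40.2%) were called higher and none lower, against 8.76% and 8.75% of all genes. The median log2 fold change was 0.28, and 70 of the 87 lay above 0. The count of higher members was 17 without control 2 or LPS 2 and 21 without control 1 or control 3, and on log2(TPM + 1) it was 20, with 1 lower. To show what regulatory sequence the increased members carry, the 250 bases before the RefSeq start site were searched for the E-box CACGTG, the core of the element through which the factor TFEB is known to drive lysosomal genes. The 3 higher members of smallest p that hold it, chosen after their values were seen, are printed with the E-box in capitals, 5′ to 3′ on the gene's strand (GRCm38.p6).
Atp6v1a, chr16:44139260-44139509, minus strand: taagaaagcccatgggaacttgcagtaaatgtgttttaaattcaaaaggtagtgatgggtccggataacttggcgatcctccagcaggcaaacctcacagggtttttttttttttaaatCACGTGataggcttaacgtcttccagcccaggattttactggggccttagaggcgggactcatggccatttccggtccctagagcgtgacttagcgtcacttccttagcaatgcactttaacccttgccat
Sgsh, chr11:119355511-119355760, minus strand: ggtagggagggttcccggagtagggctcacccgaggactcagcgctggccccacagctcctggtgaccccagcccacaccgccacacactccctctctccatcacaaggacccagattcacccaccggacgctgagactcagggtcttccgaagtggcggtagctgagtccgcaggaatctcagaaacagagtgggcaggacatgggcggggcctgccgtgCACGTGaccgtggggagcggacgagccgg
Naglu, chr11:101069844-101070093, plus strand: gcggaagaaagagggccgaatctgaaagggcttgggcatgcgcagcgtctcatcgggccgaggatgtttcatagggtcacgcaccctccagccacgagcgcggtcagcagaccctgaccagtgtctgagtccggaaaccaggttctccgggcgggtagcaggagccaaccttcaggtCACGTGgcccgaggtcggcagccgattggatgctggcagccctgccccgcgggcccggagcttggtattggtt
The E-box starts 131 bases before the start site in Atp6v1a, 29 in Sgsh and 73 in Naglu, and for Atp6v1a the RefSeq start lies 446 bases from the 5′ end of the deposited gene model. It reads the same on both strands. It was found in 6 of 28 higher lysosomal genes with a promoter in the reference (21.4%), in 8 of 39 lysosomal genes that were not called (20.5%) and in 924 of all 11809 tested genes with one (7.82%). Called and uncalled lysosomal genes thus held it at similar shares.

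Many of the higher genes encode hydrolases that remove sugars and sulfate from glycans. Of 21 such enzymes tested, 12 were called higher and none lower, with a median of 0.43, against 35 higher among all 87 lysosomal genes. This subgroup, like those of cathepsins and proton pump subunits below, was formed after the values were seen. Galns, which desulfates keratan sulfate, measured 8.52, 8.37 and 8.4 CPM in control libraries and 17.2, 16.5 and 15.8 CPM in LPS libraries (log2 fold change 0.97 ± 0.13 SE, adjusted p = 0.00326). Sgsh, the heparan sulfatase whose promoter is printed above, measured 23.6, 21.5 and 18.1 CPM in control libraries and 39.5, 36.9 and 34.7 CPM in LPS libraries (log2 fold change 0.81 ± 0.15 SE, adjusted p = 0.00885). Hexa, a subunit of the hexosaminidase that degrades GM2 ganglioside, had a log2 fold change (± SE) of 0.60 ± 0.11, and Gm2a, the activator protein that presents GM2 to it, measured 115, 100.5 and 96.7 CPM in control libraries and 179.9, 218 and 174 CPM in LPS libraries (log2 fold change 0.87 ± 0.11 SE, adjusted p = 0.00304). Hexa and Gm2a were higher in every LPS library than in any control, Gm2a more so. Naglu (0.62), Gusb (0.54), Manba (0.55) and Glb1 (0.50) were among the other glycosidases called, while the acid glucosidase Gaa (-0.13) was not. The call of Glb1 was not made in every fit that left out a library.

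Of 9 cathepsins outside the themes, 4 were called higher: Ctso (0.69), Ctsa (0.49), Ctse (0.75) and Ctsd (0.70). Ctsd, the main aspartic protease of the lysosome, measured 597, 621 and 668 CPM in control libraries and 719, 1339 and 998 CPM in LPS libraries. Its LPS 1 value was close to the controls and its LPS 2 value about 2 times them. Ctsb (0.32) and Ctsl (-0.02), the abundant cysteine proteases, were not called. Subunits of the proton pump that acidifies the lysosome moved less: 5 of 20 were higher and none lower (median 0.17), with Atp6v1a at 123, 127 and 119.7 CPM in control libraries and 166, 163 and 157 CPM in LPS libraries (log2 fold change 0.39 ± 0.07 SE, adjusted p = 0.00769). Every LPS value of Atp6v1a exceeded every control value, and its fold change was smaller than those of Galns and Sgsh. Lamp1, the chief membrane glycoprotein (0.32 ± 0.09), Psap, precursor of the saposins (0.61 ± 0.14), and Grn, progranulin (0.58 ± 0.13), were called higher, whereas the ubiquitous calcium channel Mcoln1 was not, at 53.6, 51.6 and 50.7 CPM in control libraries and 56.7, 50.1 and 51.1 CPM in LPS libraries. Its relative Mcoln3 had the largest fold change of the list, measuring 5.56, 4.46 and 7.04 CPM in control libraries and 8.73, 10.8 and 22.6 CPM in LPS libraries (log2 fold change 1.3 ± 0.34 SE, adjusted p = 0.0317). The call was lost for Mcoln3 without control 1, control 2, control 3, LPS 2 or LPS 3. Not called in every fit that left out a library: Ctse, Ctsd, Lamp1, Psap and Grn.

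**Figure D3:**
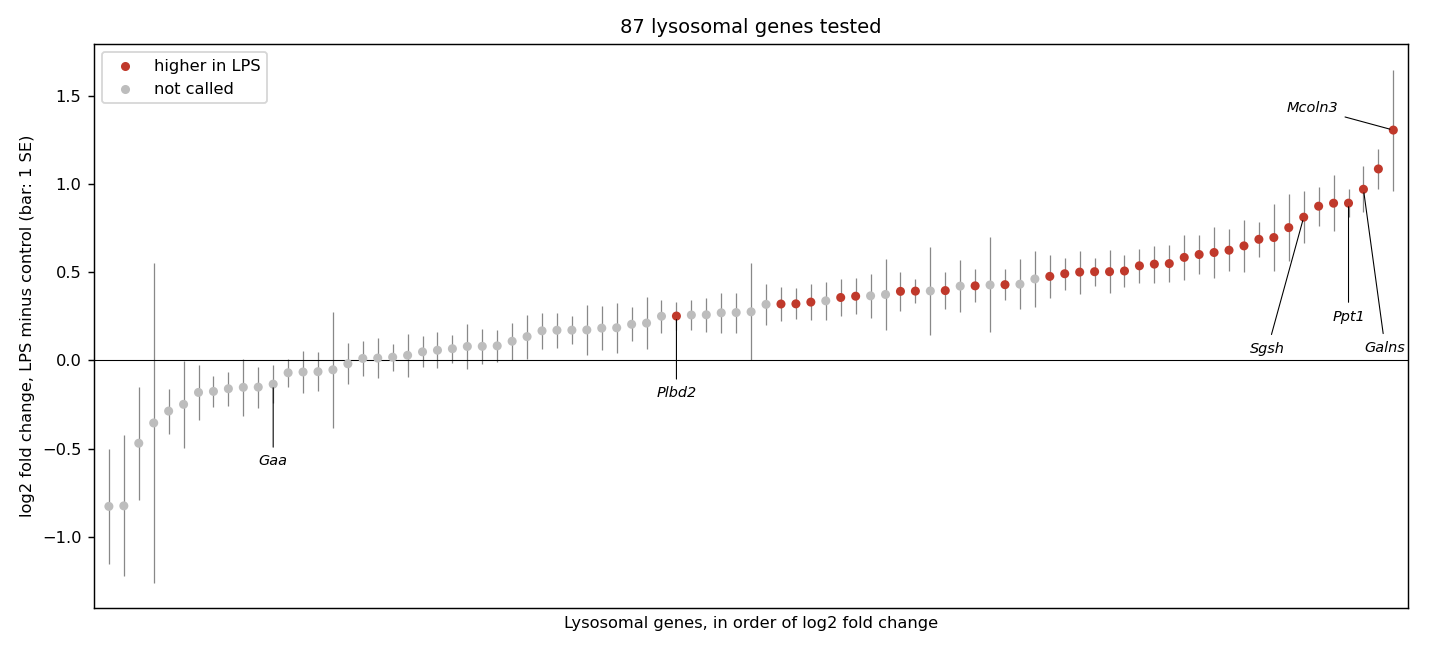
Log2 fold changes (LPS minus control) of the 87 lysosomal genes tested are drawn in order of size, with bars of 1 SE and red points for genes called higher. The 35 called genes lie between Plbd2 and Mcoln3, all above 0, and no gene below 0 was called.

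Signalling proteins specific to blood cells were often called higher. Of 85 haematopoietic kinases, phosphatases, adaptors and cytoskeletal regulators, 41 (48.2%) were higher and 1 was lower, with a median of 0.61. Medians of the members' deviations from their mean over the 6 libraries (log2 CPM) were -0.24, -0.30 and -0.28 in control libraries and 0.49, 0.29 and 0.07 in LPS libraries, so that LPS 1 stood highest and LPS 3 nearest the controls. Higher members numbered 15 without control 2, control 3 or LPS 2, 20 without LPS 1 and 25 without control 1. On log2(TPM + 1) 19 of 83 tested members were higher.

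Coro1a, the leukocyte coronin that remodels actin, measured 193, 162 and 172 CPM in control libraries and 408, 410.1 and 287 CPM in LPS libraries (log2 fold change 1.07 ± 0.16 SE, adjusted p = 0.00476). Arhgap15, a GTPase-activating protein that restrains Rac, measured 20.6, 14.7 and 15.7 CPM in control libraries and 39.6, 37.8 and 31.2 CPM in LPS libraries (log2 fold change 1.09 ± 0.16 SE, adjusted p = 0.00401). Rgs19, which shortens G protein signals, measured 26.4, 26.4 and 27.9 CPM in control libraries and 50.8, 52.9 and 40.2 CPM in LPS libraries (log2 fold change 0.83 ± 0.12 SE, adjusted p = 0.00404). In all 3 genes LPS 3 was the lowest LPS library and still above every control. Among Src-family kinases, Lyn (0.76) and Fgr (1.47) were called higher, as were the gamma phosphoinositide kinase Pik3cg (0.89) and its adaptors Pik3r5 (0.75) and Pik3r6 (0.83). The oxidase subunit Cyba (1.06), part of the complex that produces superoxide in phagocytes, the actin bundler Lcp1 (0.92), the Rac activator Dock2 (0.83) and the inhibitory phosphatases Ptpn6 (0.48) and Inpp5d (0.49) were higher too. Spi1, which encodes the myeloid master factor PU.1, measured 57.3, 40.3 and 54.4 CPM in control libraries and 135, 136 and 84 CPM in LPS libraries (log2 fold change 1.22 ± 0.30 SE, adjusted p = 0.0273). LPS 1 and LPS 2 were more than 2 times the control values of Spi1, and LPS 3 lay between. The one lower member was Gfi1 (-1.38), a repressor that balances granulocyte and lymphoid fates. The call was lost for Spi1 without control 1, control 2, control 3, LPS 1 or LPS 2. In at least 1 fit that left out a library the call was lost for Fgr, Pik3r5, Pik3r6, Ptpn6, Inpp5d and Gfi1.

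Since PU.1 is known to act at promoters of leukocyte genes, the same 250 bases were searched on both strands for GAGGAAG, letters of the type of Ets site that PU.1 prefers, a motif with a core other than that of the E-box. The 3 higher members of smallest p that hold them, again chosen after their values were seen, are printed with the match in capitals (GRCm38.p6).
Rgs19, chr2:181693978-181694227, minus strand: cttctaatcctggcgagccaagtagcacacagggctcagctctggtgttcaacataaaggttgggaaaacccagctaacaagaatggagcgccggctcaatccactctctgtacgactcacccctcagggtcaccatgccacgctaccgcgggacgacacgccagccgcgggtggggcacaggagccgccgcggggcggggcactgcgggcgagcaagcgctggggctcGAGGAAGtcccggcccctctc
Arhgap25, chr6:87533260-87533509, minus strand: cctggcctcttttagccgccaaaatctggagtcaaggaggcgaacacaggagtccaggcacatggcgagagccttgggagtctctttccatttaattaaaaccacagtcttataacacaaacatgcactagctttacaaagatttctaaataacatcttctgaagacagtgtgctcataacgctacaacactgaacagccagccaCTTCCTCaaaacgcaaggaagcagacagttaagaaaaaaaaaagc
Dock2, chr11:34783906-34784155, minus strand: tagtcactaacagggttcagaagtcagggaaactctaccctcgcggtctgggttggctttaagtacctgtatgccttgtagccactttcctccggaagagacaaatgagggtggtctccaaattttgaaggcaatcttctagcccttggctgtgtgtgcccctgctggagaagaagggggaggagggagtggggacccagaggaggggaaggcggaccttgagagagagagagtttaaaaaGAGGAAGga
The match starts 21, 45 and 9 bases before the start site, and in Arhgap25 it lies on the opposite strand. It was present in 8 of 31 higher members with a promoter (25.8%), in 4 of 30 members that were not called (13.3%) and in 1258 of all 11809 promoters (10.7%). These shares rest on few genes and describe letters, not binding.

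Receptors that leukocytes carry on their surface were higher in several families. Of 40 Fc, Siglec, Cd300 and paired immunoglobulin-like receptors matched by symbol, 15 were higher and 2 lower (median 1.03). The lower ones, Clmn and Fcho2, match the symbol pattern only and are no receptors of this kind. Cd300c2, an activating receptor of myeloid cells, measured 13.9, 12.3 and 13.8 CPM in control libraries and 30.5, 40.7 and 31.6 CPM in LPS libraries (log2 fold change 1.36 ± 0.20 SE, adjusted p = 0.00432). Cd300ld3 and Cd300ld5, its neighbours in the same gene cluster, had log2 fold changes (± SE) of 1.48 ± 0.22 and 1.19 ± 0.20. All 3 were called in every fit that left out 1 library, but these genes are close copies of each other, and reads may have been split between them. Fcer1g (1.2), the signalling chain shared by many activating Fc receptors, and the inhibitory receptors Lair1 (1.33), Cd300a (1.26) and Pirb (1.39) were higher together with the activating ones. Higher members numbered 4 without control 2, 5 without LPS 2, 7 without control 3 and 9 without LPS 1. Single libraries also decided the calls of Fcer1g, Lair1, Cd300a and Pirb.

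C-type lectins gave 7 higher and no lower calls among 22. Clec4a2, an inhibitory lectin of dendritic cells and monocytes, measured 10.4, 7.0 and 13.4 CPM in control libraries and 33.1, 38.8 and 23.5 CPM in LPS libraries (log2 fold change 1.63 ± 0.28 SE, adjusted p = 0.00852). Clec4a3 had a log2 fold change (± SE) of 1.47 ± 0.26 and Clec4a1 of 1.38 ± 0.29. Each LPS value of Clec4a2 was above each control value, and the call of Clec4a1 was lost without control 2. Among costimulatory, checkpoint and Slam receptors 10 of 27 were higher and 1 lower (Pvr, -0.42). Havcr2, the checkpoint receptor Tim-3, measured 5.59, 9.01 and 8.86 CPM in control libraries and 19.7, 21.5 and 25 CPM in LPS libraries (log2 fold change 1.5 ± 0.19 SE, adjusted p = 0.00304). Cd53, a leukocyte tetraspanin, measured 97.9, 86.8 and 81.7 CPM in control libraries and 186, 195 and 149 CPM in LPS libraries (log2 fold change 0.99 ± 0.16 SE, adjusted p = 0.00576). It also belongs to the list of tetraspanins and Ms4a proteins, where 4 of 24 were higher and 1 lower (median 0.02). That list's highest log2 fold change was 0.99. Ms4a4a (1.96), Ms4a4c (1.91) and Ms4a6c (1.52), described below with the runs of neighbours, were not counted in it. The higher count of that list was 2 without control 1, control 3, LPS 2 or LPS 3. The small glycoprotein Cd52 (1.25) and the Slam family members Cd48 (0.84), Cd84 (0.84), Slamf9 (1.02) and Slamf1 (1.08) were higher as well. All 3 LPS values exceeded all control values for Havcr2 and Cd53. On log2(TPM + 1) the lectin count was 4. It was 2 without control 2 and 3 without control 1 or LPS 2, and the costimulatory count 5 without control 2 or control 3 and 6 without LPS 1, LPS 2 or LPS 3. Calls lost without at least 1 single library also included those of Pvr, Cd84, Slamf9 and Slamf1.

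Receptors for soluble ligands formed other families. Of 25 interleukin and colony-stimulating factor receptors 5 were higher and none lower: Il3ra (0.90), Il10ra (0.69), Il18rap (1.27), Il18r1 (0.35) and Il12rb2 (1.25). Il10ra, which binds the anti-inflammatory interleukin 10, measured 41.1, 41 and 37.9 CPM in control libraries and 77.9, 62.2 and 53.6 CPM in LPS libraries (log2 fold change 0.69 ± 0.16 SE, adjusted p = 0.0229). Its groups did not overlap, and the call was lost without control 2, control 3 or LPS 2. The family's count was 0 without control 2 or LPS 2, 1 without control 3, 2 without LPS 1 or LPS plus RSBD 2 and 3 without control 1 or LPS 3, and 1 on log2(TPM + 1). Of 10 chemokine receptors outside the themes, the scavenging receptor Ackr2 was the one called (0.67 ± 0.16, lost without control 2 or LPS 2). Of 16 small GTPases and their regulators of blood cells 4 were higher and 1 lower (median 0.20). The higher count was 1 without control 2, control 3, LPS 1 or LPS 2. The GTPase inhibitor Arhgdib measured 113, 99.7 and 102 CPM in control libraries and 291, 292 and 198 CPM in LPS libraries (log2 fold change 1.31 ± 0.17 SE, adjusted p = 0.00329). Rac2 had a log2 fold change of 0.87, and its call was lost without control 2, control 3, LPS 1 or LPS 2. Arhgdib was more than 2 times control in LPS 1 and LPS 2 and just under 2 times control in LPS 3. Nucleotide receptors of haematopoietic cells included P2ry13, at 7.46, 6.78 and 5.94 CPM in control libraries and 22.1, 17.6 and 15.1 CPM in LPS libraries (log2 fold change 1.44 ± 0.23 SE, adjusted p = 0.00605), whose LPS values were all more than 2 times the highest control. The calls of Il3ra, Il18rap, Il18r1 and Il12rb2 were lost in 1 or more of the fits that left out a library.

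A list of calcium-binding annexins, S100 proteins and galectins, which also held other genes such as Vim, Capg and Sri, gave 7 higher and 2 lower calls among 30. S100a4, a protein of motile mesenchymal and myeloid cells, measured 30.8, 23.2 and 19.4 CPM in control libraries and 61.5, 68.9 and 57.5 CPM in LPS libraries (log2 fold change 1.36 ± 0.16 SE, adjusted p = 0.00282). Lgals1, galectin-1 (1.06), Capg, an actin-capping protein of macrophages (0.68), S100a11 (0.49) and the calcium sensor Sri (0.52) were higher. S100a4 was far higher in each LPS library than in any control. The lower calls were Ahnak2 (-0.64) and S100pbp (-0.41), neither of which is an annexin, S100 protein or galectin. Higher calls numbered 4 without LPS 2 and 11 without LPS 1, and log2(TPM + 1) gave 4 higher and 3 lower. Integrins and their activators gave 3 higher and 2 lower calls among 35. Parvg, the leukocyte form of the integrin-linked parvins, measured 17.7, 19.4 and 19.6 CPM in control libraries and 42.4, 43.5 and 36.6 CPM in LPS libraries (log2 fold change 1.11 ± 0.12 SE, adjusted p = 0.00221), and Itga6, the laminin-binding alpha chain found on endothelium and platelets, measured 129, 102 and 124 CPM in control libraries and 268, 186 and 211 CPM in LPS libraries (log2 fold change 0.90 ± 0.14 SE, adjusted p = 0.00576). Itga10, a collagen-binding chain of cartilage and mesenchyme, was lower at 12.6, 11.7 and 12.4 CPM in control libraries and 4.05, 4.83 and 4.8 CPM in LPS libraries (log2 fold change -1.42 ± 0.22 SE, adjusted p = 0.00557), as was Itgb4 of hemidesmosomes (-0.65). The groups were clearly apart in the first 3, each called in all 9 fits that left out 1 library. Not called in every fit that left out a library: Lgals1, Capg, S100a11, Ahnak2, S100pbp and Itgb4.

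Some platelet and megakaryocyte genes were called higher, with large differences between mice. Of 25 markers 12 (48%) were called higher and none lower, with a median of 0.94. All 4 genes of the glycoprotein Ib-IX-V complex, the platelet receptor for von Willebrand factor, were among them. They were singled out after the values were seen. Gp1ba measured 1.94, 1.66 and 3.02 CPM in control libraries and 19.8, 6.73 and 4.0 CPM in LPS libraries (log2 fold change 2.2 ± 0.60 SE, adjusted p = 0.0372). Gp5 measured 3.66, 1.4 and 4.38 CPM in control libraries and 16.4, 8.98 and 8.14 CPM in LPS libraries (log2 fold change 1.83 ± 0.49 SE, adjusted p = 0.0362). Gp9 measured 3.24, 0.796 and 4.34 CPM in control libraries and 15.2, 9.57 and 7.38 CPM in LPS libraries (log2 fold change 1.94 ± 0.56 SE, adjusted p = 0.044). In these genes LPS 1 was by far the highest library and control 2 the lowest. Gp1bb was near the limit of detection in control libraries, at 0.281, 0.0955 and 0.142 CPM in control libraries and 3.79, 1.53 and 1.45 CPM in LPS libraries. P2ry12, the platelet ADP receptor, measured 5.59, 3.18 and 4.7 CPM in control libraries and 18.7, 11 and 10.03 CPM in LPS libraries (log2 fold change 1.56 ± 0.35 SE, adjusted p = 0.0193), and Tubb1, the platelet tubulin, 15, 8.63 and 24.1 CPM in control libraries and 81.3, 39.6 and 34.5 CPM in LPS libraries (log2 fold change 1.71 ± 0.47 SE, adjusted p = 0.0383). Plek, pleckstrin, which is also abundant in leukocytes, measured 140.0, 106 and 135 CPM in control libraries and 303, 243 and 184 CPM in LPS libraries (log2 fold change 0.94 ± 0.22 SE, adjusted p = 0.0229). LPS 1 was again the highest in each, and all LPS libraries exceeded all controls. The call was lost for Gp1ba without control 1, control 2, control 3, LPS 1, LPS 2 or LPS plus RSBD 1; for Gp5 without control 1, control 2, control 3, LPS 1, LPS 2 or LPS 3; for Gp9 without control 1, control 2, control 3, LPS 1, LPS 2, LPS 3, LPS plus RSBD 1 or LPS plus RSBD 2. It was lost for P2ry12 without control 2 or control 3; for Tubb1 without each of the 9 libraries; for Plek without control 2, control 3 or LPS 2.

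These platelet calls were fragile. The count of 12 became 0 without control 3, 1 without control 2, 3 without LPS 1 or LPS 2, 5 without control 1 and 7 without LPS plus RSBD 1, and on log2(TPM + 1) it was 7. Medians of the members' deviations were -0.31, -0.85 and -0.20 in the controls, against 1.06, 0.30 and 0.08 after LPS. The summed level of the list did not follow its median, being 1220, 1890 and 1590 CPM in control and 2020, 1340 and 1260 CPM in LPS libraries. Its abundant member Thbs1, which many cell types make, measured 299, 1182 and 695 CPM in control libraries and 421, 135 and 176 CPM in LPS libraries, with overlapping groups. The integrin chain Itga2b, the defining marker of platelets, measured 26.2, 11.3 and 36.6 CPM in control libraries and 106, 49.2 and 34.8 CPM in LPS libraries (log2 fold change 1.36 ± 0.52 SE, adjusted p = 0.101) and its groups overlapped. Haemoglobin differed as well: its 4 genes summed to 1110, 542 and 4360 CPM in control and 4580, 7300 and 8480 CPM in LPS libraries. The part of retained blood in the platelet values, or of the haemoglobin level in any other result, was not tested.

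Ligands, receptors and effectors of growth and patterning pathways were called lower more often than higher. Of 60 Wnt pathway genes 10 were lower and 2 higher (median -0.19). The ligands Wnt4 (-0.98), Wnt11 (-0.92) and Wnt2b (-0.69) were lower and Wnt10b (1.02) was higher. The co-receptor Lrp6 measured 220.4, 215 and 187 CPM in control libraries and 162, 134 and 142 CPM in LPS libraries (log2 fold change -0.51 ± 0.10 SE, adjusted p = 0.00968), and its relative Lrp5 (-0.38) and the R-spondin receptor Lgr4 (-0.63) were lower too. Dvl1, which relays the signal inside the cell, measured 97.8, 88.5 and 96.8 CPM in control libraries and 64, 73.4 and 68.3 CPM in LPS libraries (log2 fold change -0.46 ± 0.08 SE, adjusted p = 0.00834), and Tcf7l1, a repressor at the end of the pathway, 21.4, 21.9 and 23 CPM in control libraries and 14.2, 13.2 and 16.1 CPM in LPS libraries (log2 fold change -0.61 ± 0.12 SE, adjusted p = 0.0113). The groups did not overlap in Lrp6, Dvl1 or Tcf7l1, the margin being narrow for Lrp6 and Dvl1. The secretion factor Wls was higher (0.47). Lower members numbered 2 without LPS 2, 3 without control 2, 5 without control 3 and 6 without control 1 or LPS 3. The call was lost for Tcf7l1 without LPS 2. Calls lost without at least 1 single library also included those of Wnt4, Wnt11, Wnt2b, Wnt10b, Lrp5, Lgr4 and Wls.

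The transforming growth factor beta and bone morphogenetic protein superfamily gave 10 lower and 3 higher calls among 69 (median -0.16). Higher were the ligand Tgfb1, at 54.8, 54.6 and 54.3 CPM in control libraries and 76.8, 78.5 and 70.2 CPM in LPS libraries (log2 fold change 0.46 ± 0.10 SE, adjusted p = 0.0136), the myeloid milieu molecule Nrros, at 44.1, 36.6 and 38.2 CPM in control libraries and 90.2, 74.2 and 58.5 CPM in LPS libraries (log2 fold change 0.91 ± 0.15 SE, adjusted p = 0.00616), and the secreted target Tgfbi (1.3). All LPS values exceeded the controls in Tgfb1 and Nrros, although the call of Tgfb1 was lost without control 2 or LPS 2. Lower members included the effector Smad3, described above, the type I receptor Acvr1 (-0.45), the co-receptor Tgfbr3 (-0.47), the ubiquitin ligases Smurf1 (-0.37) and Smurf2 (-0.32), the repressor Skil (-0.38), the antagonists Chrd (-1.2) and Crim1 (-0.38), and the stress ligand Gdf15 (-1.34). The ligand Tgfb1 was thus higher and the effector Smad3 lower. The lower count was 1 without control 3, 2 without control 2 or LPS 2, 4 without LPS 3 and 5 without control 1. The calls of Tgfbi, Acvr1, Tgfbr3, Smurf1, Smurf2, Skil, Chrd, Crim1 and Gdf15 were lost in 1 or more of the fits that left out a library.

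Of 99 genes of fibroblast, insulin-like, platelet-derived and other growth factor pathways and their feedback inhibitors 15 were lower and 4 higher (median -0.20). Igfbp6, a binding protein that sequesters insulin-like growth factor II, measured 245, 181 and 217 CPM in control libraries and 94, 59.99 and 84.2 CPM in LPS libraries (log2 fold change -1.43 ± 0.20 SE, adjusted p = 0.00417). Gdnf, a neurotrophic ligand of the Ret receptor, measured 14.5, 25.6 and 18.6 CPM in control libraries and 8.54, 8.26 and 9.05 CPM in LPS libraries (log2 fold change -1.18 ± 0.19 SE, adjusted p = 0.00627). Irs1, the docking protein of insulin and insulin-like growth factor receptors, measured 44.6, 48.8 and 43.6 CPM in control libraries and 26.9, 26.6 and 27.7 CPM in LPS libraries (log2 fold change -0.76 ± 0.15 SE, adjusted p = 0.0104). In every one the LPS libraries were below all controls, most markedly for Igfbp6. The receptors Fgfr1 (-0.69), Igf1r (-0.56) and Mst1r (-1.0), the docking protein Irs2 (-0.59), the feedback inhibitor Spred2 (-0.61) and the endothelial antagonist Angpt2 (-1.13) were lower as well. Higher were the ligands Pdgfd (0.50), Vegfc (0.70) and Nrg4 (0.71) and the phosphatase Dusp22 (0.56). Lower calls numbered 4 without LPS 2, 5 without control 2 or control 3 and 9 without LPS 3. Not called in every fit that left out a library: Fgfr1, Igf1r, Mst1r, Irs2, Spred2, Angpt2, Pdgfd, Vegfc and Nrg4.

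Guidance molecules followed the same direction, with 8 of 59 lower and 1 higher, although the median was -0.02. Sema5a, a transmembrane semaphorin, measured 51.9, 58.1 and 79.6 CPM in control libraries and 31.4, 30.3 and 31.1 CPM in LPS libraries (log2 fold change -1.03 ± 0.14 SE, adjusted p = 0.00326), and Plxnb1, a receptor for semaphorins, 169, 180.1 and 194 CPM in control libraries and 103, 111 and 125 CPM in LPS libraries (log2 fold change -0.68 ± 0.10 SE, adjusted p = 0.00528). The ephrin Efnb3 measured 2.92, 2.93 and 3.27 CPM in control libraries and 1.08, 1.01 and 0.981 CPM in LPS libraries (log2 fold change -1.57 ± 0.29 SE, adjusted p = 0.00953). Groups did not overlap in the 3 genes. The ephrin receptors Epha2 (-0.72), Ephb2 (-1.25) and Ephb3 (-0.46) and the co-receptor Nrp2 (-0.59) were also lower. The count of lower guidance genes was 5 without control 2, control 3 or LPS 2. Notch and Hedgehog pathways gave 2 lower calls among 37, the ligand Dhh (-1.05, lost without control 2, LPS 2 or LPS 3) and the co-receptor Boc (-0.38, lost without control 1, control 2, control 3, LPS 2, LPS 3, LPS plus RSBD 1 or LPS plus RSBD 2). Cadherins and protocadherins gave 2 higher and 1 lower calls among 81, below background in both directions, and the planar polarity cadherin Celsr1 was the lower one at 49.4, 68.2 and 60.1 CPM in control libraries and 33.8, 33.8 and 41.2 CPM in LPS libraries (log2 fold change -0.71 ± 0.13 SE, adjusted p = 0.00885). Its LPS values lay below all controls. In at least 1 fit that left out a library the call was lost for Epha2, Ephb2 and Ephb3.

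Developmental transcription factors were lower more often than higher, at 16 lower and 2 higher calls among 108 (median -0.26). Foxp4, a forkhead repressor of the lung epithelium, measured 61.4, 74.3 and 81.9 CPM in control libraries and 37.8, 42.6 and 43.3 CPM in LPS libraries (log2 fold change -0.81 ± 0.12 SE, adjusted p = 0.00417). Hoxb4 measured 24.9, 23.4 and 26.4 CPM in control libraries and 16.5, 13 and 13.5 CPM in LPS libraries (log2 fold change -0.80 ± 0.12 SE, adjusted p = 0.00526). Meis1, a partner of Hox proteins, measured 162, 112 and 120.3 CPM in control libraries and 70.7, 56.2 and 77.6 CPM in LPS libraries (log2 fold change -0.94 ± 0.15 SE, adjusted p = 0.00605). The groups did not overlap, and these 3 calls were made in all 9 fits that left out 1 library. Of 7 Hoxb genes 3 were lower, Hoxb4, Hoxb3 (-0.75) and Hoxb5 (-0.66, with overlapping groups), and of 7 Hoxa genes 2 were higher, Hoxa5 (0.41) and Hoxa7 (1.41). The clusters were singled out after the values were seen, and the difference between them was not tested. The airway factors Foxa1 (-0.81), Sox2 (-0.80) and Foxq1 (-0.60) and the homeobox gene Six4 (-0.98) were lower. The count of lower factors was 6 without LPS 2 and 7 without control 2 or control 3. Nuclear receptors and their coregulators gave 4 lower and 1 higher calls among 28 (median -0.24): the orphan receptor Nr6a1 at 15.3, 15.5 and 15.6 CPM in control libraries and 10.3, 9.6 and 8.1 CPM in LPS libraries (log2 fold change -0.73 ± 0.13 SE, adjusted p = 0.00852), the coactivator Ncoa3 (-0.59) and the vitamin D receptor Vdr (-0.52) were among the lower ones, and Ncoa4 (0.31), which also delivers ferritin to lysosomes, was higher. Nr6a1 was below control in every LPS library. Lower receptors numbered 2 without control 2, control 3, LPS 2 or LPS 3 and 7 without LPS 1. Single libraries also decided the calls of Hoxb3, Hoxb5, Hoxa5, Hoxa7, Sox2, Foxq1, Vdr and Ncoa4.

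Genes that act on chromatin were more often lower than higher. Of 167 chromatin modifiers 23 were lower and 4 higher (median -0.12). Among the higher ones were the DNA-binding proteins Hmgb2, at 61.1, 51.7 and 68.3 CPM in control libraries and 156, 139 and 121 CPM in LPS libraries (log2 fold change 1.2 ± 0.15 SE, adjusted p = 0.00304), and Hmgn2, at 52.6, 41.9 and 69.4 CPM in control libraries and 126, 136 and 125 CPM in LPS libraries (log2 fold change 1.24 ± 0.18 SE, adjusted p = 0.00486), which are abundant in dividing cells. Both were about 2 times control or more in all LPS libraries. The class IIa deacetylase Hdac7 measured 339.9, 309 and 329 CPM in control libraries and 248, 202 and 217 CPM in LPS libraries (log2 fold change -0.55 ± 0.09 SE, adjusted p = 0.00645), and the methyltransferases Kmt2d (-0.63), Kmt2a (-0.46), Dot1l (-0.42) and Dnmt3a (-0.33) and the deacetylase Sirt1 (-0.42) were lower. Hdac7 was lower in each LPS library, while Kmt2d, at 436, 422 and 448 CPM in control libraries and 375, 232 and 241 CPM in LPS libraries, was nearest control in LPS 1. The number of lower members was 1 without control 3 or LPS 3, 2 without control 2 or LPS 2, 8 without control 1, 13 without LPS plus RSBD 1 or LPS plus RSBD 3 and 41 without LPS 1. Calls lost without at least 1 single library also included those of Kmt2d, Kmt2a, Dot1l, Dnmt3a and Sirt1.

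Of 165 splicing and RNA-binding proteins 19 (11.5%) were lower and 10 (6.06%) higher, not far from the 8.75% and 8.76% of all genes. Cirbp, the cold-inducible RNA-binding protein, measured 72.1, 52.8 and 66.4 CPM in control libraries and 156, 151 and 121 CPM in LPS libraries (log2 fold change 1.16 ± 0.16 SE, adjusted p = 0.00417). Hnrnpa1, which silences exons, measured 233, 253 and 219 CPM in control libraries and 365, 334 and 332 CPM in LPS libraries (log2 fold change 0.55 ± 0.09 SE, adjusted p = 0.00616). Tra2a, which promotes exon inclusion, measured 246, 241 and 265 CPM in control libraries and 166, 162 and 165 CPM in LPS libraries (log2 fold change -0.61 ± 0.09 SE, adjusted p = 0.00528). None of the groups overlapped, and the directions differed between these proteins. Other lower genes included the SR proteins Srsf6 (-0.27), Srsf7 (-0.34) and Srsf10 (-0.37) and their kinases Clk3 (-0.39) and Clk4 (-0.37). Lower RNA-binding genes numbered 5 without LPS 2, 8 without control 3, 9 without control 2, 10 without LPS 3, 11 without control 1 and 35 without LPS 1. Of 380 C2H2 zinc finger genes 25 were lower and 12 higher, both below background, with Zfp697 (-1.08 ± 0.14), Zfp451 (-0.58 ± 0.08) and Zfp609 (-0.68 ± 0.09) the members of smallest p. Of 119 Klf, Ets, Cebp, Runx and related factors 9 were lower and 3 higher, both below background. Zbtb44 (-0.49 ± 0.09) and Hivep2 (-0.49 ± 0.09) were lower and Klf11 (0.64 ± 0.13) higher, the call of Klf11 being lost without control 2. The lower zinc finger count was 12 without LPS 2, 14 without control 2, control 3 or LPS 3 and 15 without control 1, and that of the Klf and Ets group 2 without LPS 2, 3 without control 2 or LPS 3, 4 without control 3 and 18 without LPS 1. The calls of Srsf6, Srsf7, Srsf10, Clk3 and Clk4 were lost in 1 or more of the fits that left out a library.

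Giant cytoskeletal and scaffold proteins were called lower more often than higher. Of 84 unconventional myosins, spectrins, ankyrins and large scaffolds 18 (21.4%) were lower and 3 higher (median -0.19). Myo18a measured 175, 166 and 159 CPM in control libraries and 131, 117 and 118 CPM in LPS libraries (log2 fold change -0.45 ± 0.08 SE, adjusted p = 0.00792), and Myo5c, which carries secretory granules in epithelia, 176, 196 and 186 CPM in control libraries and 118, 104 and 128 CPM in LPS libraries (log2 fold change -0.67 ± 0.13 SE, adjusted p = 0.00976). Both were lower in every LPS library. Syne2, which links the nucleus to actin (-0.54), Akap9 of the centrosome (-0.43) and Frem2 of the basement membrane (-1.15) were lower, and the leukocyte myosins Myo1f (0.99) and Myo1g (0.83) were higher. Lower scaffold genes numbered 11 without control 1, 2 without LPS 2, 3 without control 2, 6 without control 3 and 7 without LPS 3. Not called in every fit that left out a library: Syne2, Akap9, Frem2, Myo1f and Myo1g.

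The direction of change followed transcript length across the whole table. Genes were divided into quartiles by their longest protein-coding transcript in GENCODE M21, which 15039 of the tested genes (99.5%) have. In the shortest quartile, of 114 to 1945 bases, 12.8% were called higher and 2.87% lower, with a median log2 fold change of 0.126. In the longest, of 4589 to 123179 bases, 4.15% were higher and 15.2% lower, with a median of -0.115. The 2 middle quartiles lay between, with medians of 0.027 and -0.036. The order was the same in genes above the median level (0.195, 0.041, -0.036 and -0.118 from shortest to longest) and below it (0.064, 0.013, -0.036 and -0.098).

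Single libraries did not share this pattern evenly. The median deviation of the shortest quartile minus that of the longest was -0.076, -0.173 and -0.091 in control libraries 1 to 3, and -0.143, 0.276 and 0.211 in LPS libraries 1 to 3 (log2 CPM). LPS 1 therefore sat with the controls, and the contrast came from LPS 2 and LPS 3. Leaving out LPS 1 moved the medians to 0.205 and -0.168, and leaving out LPS 2 left 0.079 and -0.079. In the shortest quartile 482 genes were higher, which became 133 without control 2, 159 without control 3, 713 without LPS 1, 115 without LPS 2, 288 without LPS 3 and 320 without control 1. In the longest quartile 570 were lower, which became 149 without LPS 2, 243 without LPS 3, 194 without control 2 and 226 without control 3. Chromatin modifiers (median length 4562 bases) and giant scaffolds (7927) belong to the long end and the mitochondrial ribosome (1368) to the short end. Also long were nuclear receptors (5053), ABC transporters and P-type ATPases (4868), guidance molecules (4646) and GTPase regulators (4503), among others. The boundary between the middle quartiles was 3053 bases, and the part of length in the calls of any family was not tested. In the haematopoietic signalling genes (median length 2973 bases) LPS 1 was the highest library.

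**Figure D4:**
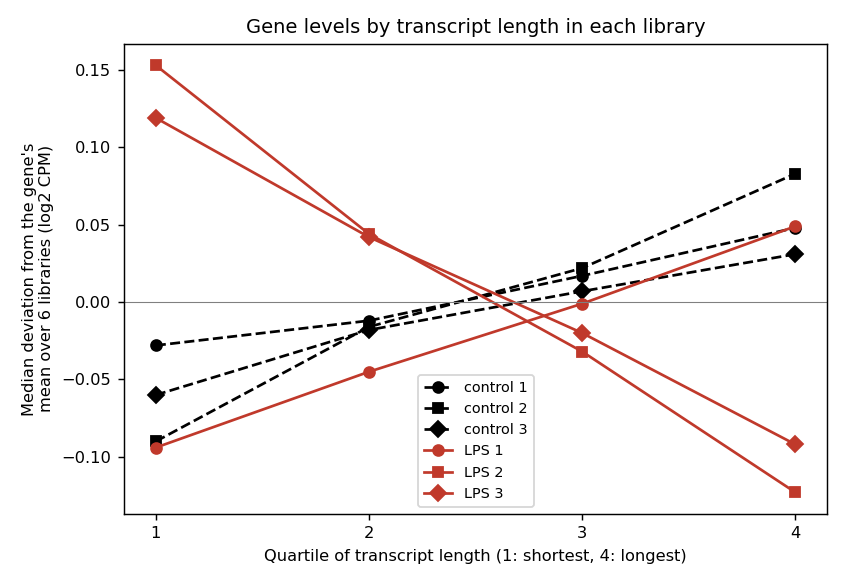
For each quartile of transcript length (1 the shortest, 4 the longest), the median deviation of its genes from their mean over the 6 libraries (log2 CPM) is drawn for each control (black, dashed) and LPS library (red). LPS 2 and LPS 3 fall from the shortest to the longest quartile, while LPS 1 rises with the 3 control libraries.

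Of 80 mitochondrial ribosome genes 10 were higher and none lower (median 0.18). Mrps16 measured 12, 11.6 and 11.7 CPM in control libraries and 17.1, 19.9 and 17.2 CPM in LPS libraries (log2 fold change 0.62 ± 0.12 SE, adjusted p = 0.00947). The groups did not overlap, and LPS 1 and LPS 3 were lower than LPS 2. The median deviations of the family were -0.03, -0.10 and -0.14 in the controls, against -0.13, 0.20 and 0.19 after LPS, so that LPS 1 again sat with the controls. The count was 1 without control 2, control 3 or LPS 2, 4 without LPS 3, 5 without control 1 or LPS plus RSBD 1, 6 without LPS plus RSBD 2 and 22 without LPS 1. Of 99 tricarboxylic acid cycle enzymes and mitochondrial carriers 17 were higher and 6 lower, and of 83 fatty acid oxidation and peroxisome genes 13 and 4, whereas on log2(TPM + 1) the counts were 5 higher and 8 lower and 3 higher and 4 lower, with medians that turned from 0.07 and 0.05 to -0.03 and -0.05. Cpt1a, which admits long-chain fatty acids to the mitochondrion, measured 91.8, 92.3 and 94.2 CPM in control libraries and 207, 182 and 134 CPM in LPS libraries (log2 fold change 0.91 ± 0.15 SE, adjusted p = 0.00582), and Abcd2, a peroxisomal importer of very long-chain fatty acids, 26.9, 18.9 and 21.6 CPM in control libraries and 57.8, 42.5 and 43.5 CPM in LPS libraries (log2 fold change 1.09 ± 0.18 SE, adjusted p = 0.00638). Both were higher in every LPS library, whereas the muscle isoform Cpt1b was lower (-1.21). The orphan carrier Slc25a45 (0.73 ± 0.10) was higher and Slc25a51, which imports NAD into mitochondria, lower (-0.43 ± 0.07). The higher counts were 4 without control 2 or LPS 2, 5 without control 3, 8 without control 1 and 9 without LPS 3 for the first family, and 2 without LPS 2, 3 without control 2, 4 without control 3 and 8 without control 1 or LPS 3 for the second. The call of Cpt1b was not made in every fit that left out a library.

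Of 99 eicosanoid and sphingolipid genes 18 were higher and 5 lower, which on log2(TPM + 1) became 9 higher and 5 lower. Several enzymes of the leukotriene pathway were among the higher ones. Alox5, the 5-lipoxygenase, measured 16.8, 15.6 and 16.2 CPM in control libraries and 44, 39.5 and 28.1 CPM in LPS libraries (log2 fold change 1.2 ± 0.24 SE, adjusted p = 0.0128), and its activating protein Alox5ap 79.5, 48.3 and 99.7 CPM in control libraries and 285, 262 and 134 CPM in LPS libraries (log2 fold change 1.58 ± 0.46 SE, adjusted p = 0.0444). Lta4h, which makes leukotriene B4, measured 71.2, 70.1 and 68.6 CPM in control libraries and 94.4, 92.7 and 89.9 CPM in LPS libraries (log2 fold change 0.40 ± 0.07 SE, adjusted p = 0.00841). All LPS values exceeded all controls, by a narrow margin for Alox5ap in LPS 3. Ltc4s, which makes leukotriene C4, was higher (1.0 ± 0.19), as were the receptor Ltb4r1 described above, the cannabinoid receptor Cnr2 (0.79 ± 0.13) and the thromboxane synthase Tbxas1 (0.74). On the prostaglandin side the cyclooxygenase Ptgs1 (-0.61) and Ptges3 (-0.57 ± 0.11), a chaperone also described as a prostaglandin E synthase, were lower. Higher mediator genes numbered 4 without control 2 or LPS 2 and 6 without control 3, and lower ones 1 without LPS 2, 2 without control 2 or control 3 and 3 without LPS 1, LPS 3 or LPS plus RSBD 1. The call was lost for Alox5 without control 2 or LPS 2; for Alox5ap without control 1, control 2, control 3, LPS 1, LPS 2, LPS 3, LPS plus RSBD 1 or LPS plus RSBD 2. Single libraries also decided the calls of Tbxas1 and Ptgs1.

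Glycolysis and lactate genes gave 8 higher and 7 lower calls among 69, and 2 higher and 5 lower on log2(TPM + 1). The glycolytic enzymes Eno1, at 100.2, 89.8 and 97.3 CPM in control libraries and 162, 162 and 131 CPM in LPS libraries (log2 fold change 0.67 ± 0.10 SE, adjusted p = 0.00557), Pgam1 (0.37 ± 0.07), Pkm (0.53) and, with overlapping groups, Gpi1 (0.44) were higher, and the lactate carrier Slc16a1 (-0.47), the neuronal enolase Eno2 (-1.42) and the hexokinase-like Hkdc1, at 13.7, 21.4 and 15.8 CPM in control libraries and 8.95, 8.95 and 7.56 CPM in LPS libraries (log2 fold change -1.0 ± 0.19 SE, adjusted p = 0.0104), were lower. Eno1 and Hkdc1 showed no overlap between groups, and the call of Pgam1 was lost without LPS 2. The higher count was 2 without control 2, control 3 or LPS 2 and 4 without control 1, and the lower count 2 without control 2 or LPS 2 and 4 without control 3 or LPS 3. Of 51 aldehyde dehydrogenases, flavin monooxygenases and conjugating enzymes none was higher and 6 were lower. Adh7, the epithelial alcohol dehydrogenase that oxidises retinol, measured 16.1, 16.9 and 20.5 CPM in control libraries and 5.72, 7.28 and 6.91 CPM in LPS libraries (log2 fold change -1.42 ± 0.26 SE, adjusted p = 0.00885), and Fmo1, an abundant monooxygenase, 711, 571 and 742 CPM in control libraries and 446, 434 and 550.1 CPM in LPS libraries (log2 fold change -0.50 ± 0.13 SE, adjusted p = 0.0284). The sulfotransferase Sult2a1 had 233 reads in all over the control and 8 over the LPS libraries (3.94, 2.48 and 1.53 CPM in control libraries and 0, 0.131 and 0.145 CPM in LPS libraries). No group overlap was seen in the 3 genes, and the call of Fmo1 was lost without control 1, control 3, LPS 1 or LPS 2. The lower count was 2 without control 1, control 3 or LPS 2 and 3 without LPS 3. In amino acid and one-carbon metabolism 6 of 100 were higher and 5 lower, and Mat2a, which makes S-adenosylmethionine, had the smallest p at 326, 363 and 306 CPM in control libraries and 200.2, 187 and 205 CPM in LPS libraries (log2 fold change -0.75 ± 0.10 SE, adjusted p = 0.00326). All LPS values of Mat2a were below the controls. The higher count was 0 without control 3 or LPS 2 and 1 without control 2 or LPS 3, the lower count was 2 without control 3 and 3 without LPS 2, and on log2(TPM + 1) there were 3 higher and 10 lower. Calls lost without at least 1 single library also included those of Pkm, Gpi1, Slc16a1 and Eno2.

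Among 260 solute carriers 28 were lower and 18 higher. Besides Slc5a3 and Slc26a2, the amino acid transporter Slc38a4 was lower at 33.6, 31.3 and 24.4 CPM in control libraries and 13.5, 11.3 and 10.7 CPM in LPS libraries (log2 fold change -1.33 ± 0.17 SE, adjusted p = 0.00304). Slc38a2 (-0.66) and Slc1a5 (-0.57), which also import neutral amino acids, and the vitamin C transporters Slc23a1 (-0.83) and Slc23a2 (-0.82) were lower. Every LPS value of Slc38a4 was far below every control value. Higher were the urate carrier Slc2a9 (0.94), the lysosomal peptide carrier Slc15a3 (0.82) and the urea transporter Slc14a1 (1.45). Lower carriers numbered 12 without LPS 2, 13 without control 2 or control 3 and 18 without LPS 3, and higher ones 3 without control 2, 6 without control 3 or LPS 2 and 11 without LPS 1, while on log2(TPM + 1) there were 7 higher and 27 lower. Of 65 ABC transporters and P-type ATPases 9 were lower and 4 higher. Atp2c2, a calcium pump of secretory epithelia, measured 23.7, 23.6 and 33.5 CPM in control libraries and 7.02, 8.69 and 10.5 CPM in LPS libraries (log2 fold change -1.62 ± 0.22 SE, adjusted p = 0.00326), and Atp8b4, a lipid flippase of myeloid cells, 17.4, 12.8 and 20.4 CPM in control libraries and 66.5, 47.7 and 30.6 CPM in LPS libraries (log2 fold change 1.52 ± 0.28 SE, adjusted p = 0.0107). They moved in opposite directions without overlap. The lower pumps numbered 1 without control 2 or LPS 2, 3 without control 3 or LPS 3 and 5 without control 1. The calls of Slc23a1, Slc2a9, Slc15a3 and Slc14a1 were lost in 1 or more of the fits that left out a library.

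Ion channels were called at about the background rate, 10 higher and 12 lower among 114 sodium, calcium, Trp and chloride channels, aquaporins and connexins and 5 higher and 4 lower among 67 potassium channels. Besides Scn3b, the store-operated calcium channel Orai2 was higher at 30.6, 33.2 and 31.1 CPM in control libraries and 57.7, 55.1 and 48.7 CPM in LPS libraries (log2 fold change 0.77 ± 0.09 SE, adjusted p = 0.00282), as was the leukocyte cation channel Trpv2 (0.73). Cacna1h, a T-type calcium channel, was lower at 25.2, 24.4 and 30.9 CPM in control libraries and 8.84, 11.3 and 13 CPM in LPS libraries (log2 fold change -1.28 ± 0.15 SE, adjusted p = 0.00282). The groups did not overlap in Orai2 or Cacna1h, and both calls were made in all 9 fits that left out 1 library. The epithelial channels Cftr (-1.26), Aqp4 (-1.51) and the connexin Gja1 (-0.92) were lower. Potassium channel genes included the subunit Kcnab2, higher at 21.7, 21.7 and 20.7 CPM in control libraries and 37.2, 36.2 and 31.4 CPM in LPS libraries (log2 fold change 0.71 ± 0.12 SE, adjusted p = 0.00773), with the groups apart. Higher calls among the first channels numbered 4 without control 3 or LPS 2, 5 without control 2 and 6 without control 1, and lower ones 5 without LPS 2 and 6 without control 2, control 3 or LPS 3, while higher potassium channels numbered 2 without control 2 or control 3 and 3 without control 1 or LPS 2, and lower ones 1 without control 2 or LPS 2 and 2 without control 3. With log2(TPM + 1) the first channels gave 5 higher and 9 lower and potassium channels 2 higher and 5 lower. Not called in every fit that left out a library: Cftr, Aqp4 and Gja1.

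Hormone and transmitter receptors gave 5 higher and 4 lower calls among 87, below background in both directions. Npr1, the receptor for atrial natriuretic peptide, measured 216, 208 and 207 CPM in control libraries and 151, 126 and 151 CPM in LPS libraries (log2 fold change -0.56 ± 0.09 SE, adjusted p = 0.00526), and Tacr1, the receptor for substance P, 1.27, 3.88 and 2.74 CPM in control libraries and 0.297, 0.555 and 0.327 CPM in LPS libraries (log2 fold change -2.72 ± 0.50 SE, adjusted p = 0.00906). Both were lower in every LPS library, Tacr1 at low absolute levels. Among 99 adhesion and orphan G protein-coupled receptors and regulators of G protein signalling 11 were higher and 6 lower. Adgrl3, a latrophilin, was lower at 133, 129 and 134 CPM in control libraries and 87.1, 59.7 and 76.2 CPM in LPS libraries (log2 fold change -0.83 ± 0.14 SE, adjusted p = 0.00739), and Rgs2, which limits vasoconstrictor signals, was higher at 74.9, 54.3 and 62.2 CPM in control libraries and 125, 119.5 and 90.9 CPM in LPS libraries (log2 fold change 0.81 ± 0.15 SE, adjusted p = 0.0094). Their groups did not overlap. The short-chain fatty acid receptor Ffar2 (1.36) and the leukocyte receptors Gpr171 (1.05), Gpr18 (0.74) and Adgrg3 (1.01) were higher. Higher calls numbered 1 without control 2 or control 3, 2 without LPS 2 or LPS 3 and 3 without LPS 1, LPS plus RSBD 1 or LPS plus RSBD 2 for hormone receptors, and 4 without control 3 or LPS 2 and 5 without control 1 or control 2 for the orphan group. On log2(TPM + 1) hormone receptors gave 2 higher and 3 lower and the orphan group 6 higher and 6 lower. In at least 1 fit that left out a library the call was lost for Ffar2, Gpr171, Gpr18 and Adgrg3.

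Subgroups of actin regulators, formed after the values were seen, differed in their calls. Of 9 genes for subunits of the Arp2/3 complex, which nucleates branched actin, all had positive log2 fold changes (median 0.58) and 7 were called higher, while the variant subunit Actr3b, not counted among them, was at -0.49 and not called. Arpc4 measured 89.2, 87.5 and 80.7 CPM in control libraries and 129, 146 and 127 CPM in LPS libraries (log2 fold change 0.64 ± 0.09 SE, adjusted p = 0.00362), and Arpc5 218, 192 and 194 CPM in control libraries and 340.3, 347 and 294 CPM in LPS libraries (log2 fold change 0.70 ± 0.10 SE, adjusted p = 0.00397). Every LPS value of both exceeded every control value. Of 23 Arhgef exchange factors, which activate GTPases of the cytoskeleton, 6 were lower and 1 higher, and Arhgef17 measured 129, 140.3 and 136 CPM in control libraries and 91, 88.2 and 90.02 CPM in LPS libraries (log2 fold change -0.59 ± 0.08 SE, adjusted p = 0.00316). Arhgap activating proteins were split, 7 higher and 6 lower among 31, the higher ones including the leukocyte genes Arhgap15, Arhgap25 (0.66), Arhgap9 (0.66) and Arhgap30 (0.57). Over all 134 genes of this family of GTPase regulators and effectors 24 were higher and 25 lower. Higher regulators numbered 11 without LPS 2 and 12 without control 2 or control 3, and lower ones 10 without control 2 or LPS 2, 14 without control 3 and 15 without LPS 3. Their calls on log2(TPM + 1) were 10 higher and 22 lower. Single libraries also decided the calls of Arhgap9 and Arhgap30.

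Calls among genes of protein synthesis and turnover were read against the backgrounds of 8.76% higher and 8.75% lower. Of 134 ribosome biogenesis and translation factors 13 were higher and 6 lower, among them the initiation factor 3 subunits Eif3h, at 131, 118 and 123 CPM in control libraries and 161, 189 and 184 CPM in LPS libraries (log2 fold change 0.52 ± 0.09 SE, adjusted p = 0.00816), Eif3f (0.55 ± 0.10), Eif3e (0.48) and, with overlapping groups, Eif3k (0.54) as higher and Eif3b (-0.35) as lower. Eif3h was higher in all LPS libraries, least in LPS 1. The higher count was 5 without control 2 or LPS 2, 7 without LPS 3 or LPS plus RSBD 2, 8 without control 1, control 3 or LPS plus RSBD 1 and 23 without LPS 1, and on log2(TPM + 1) the family gave 5 higher and 6 lower. Of 35 proteasome subunits 5 were higher and none lower (median 0.15), and of 45 Trim ubiquitin ligases 3 were higher and 7 lower, Trim8 at 165, 168 and 159 CPM in control libraries and 118, 115 and 132 CPM in LPS libraries (log2 fold change -0.43 ± 0.08 SE, adjusted p = 0.00798). The groups of Trim8 did not overlap. Over both together, 8 were higher, which became 0 without control 2, control 3 or LPS 2, 2 without LPS 3, 4 without LPS plus RSBD 2, 5 without control 1 or LPS plus RSBD 1 and 17 without LPS 1, and 7 lower, which became 2 without control 3, LPS 2 or LPS 3 and 3 without control 2. On log2(TPM + 1) both together gave 3 higher and 6 lower. Autophagy and apoptosis genes gave 5 calls each way among 82 (higher calls numbered 2 without control 2 or LPS 2 and 3 without control 3, and lower ones 2 without control 2, control 3, LPS 2 or LPS 3 and 8 without LPS 1), and Atg16l2 (-0.77 ± 0.11) and the p53 relative Trp73 (-1.14 ± 0.18) were among the lower ones. Protease inhibitors outside the themes gave 6 higher and 2 lower calls among 44, Itih5, which stabilises hyaluronan, at 16.9, 17.5 and 16.1 CPM in control libraries and 9.81, 11.3 and 9.48 CPM in LPS libraries (log2 fold change -0.72 ± 0.13 SE, adjusted p = 0.0094). All LPS values of Itih5 were below all controls. Higher inhibitors numbered 0 without control 2 or LPS 2, 1 without control 3, 2 without LPS 3 and 3 without control 1, against 2 higher and 4 lower on log2(TPM + 1). Iron, copper and zinc handling gave 6 higher and 2 lower calls among 48. Hfe, which governs iron sensing, measured 40.7, 34.6 and 32.7 CPM in control libraries and 63.8, 64.7 and 62.1 CPM in LPS libraries (log2 fold change 0.82 ± 0.10 SE, adjusted p = 0.00304), and Slc11a2, the ferrous iron importer, 59.2, 64.4 and 68.4 CPM in control libraries and 44.3, 46.4 and 49.1 CPM in LPS libraries (log2 fold change -0.46 ± 0.08 SE, adjusted p = 0.00906). The former was higher and the latter lower in every LPS library, and the higher count of the family was 3 without control 2 or LPS 2. On log2(TPM + 1) its calls were 4 higher and 7 lower. Calls lost without at least 1 single library also included those of Eif3e, Eif3k and Eif3b.

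**Figure D5:**
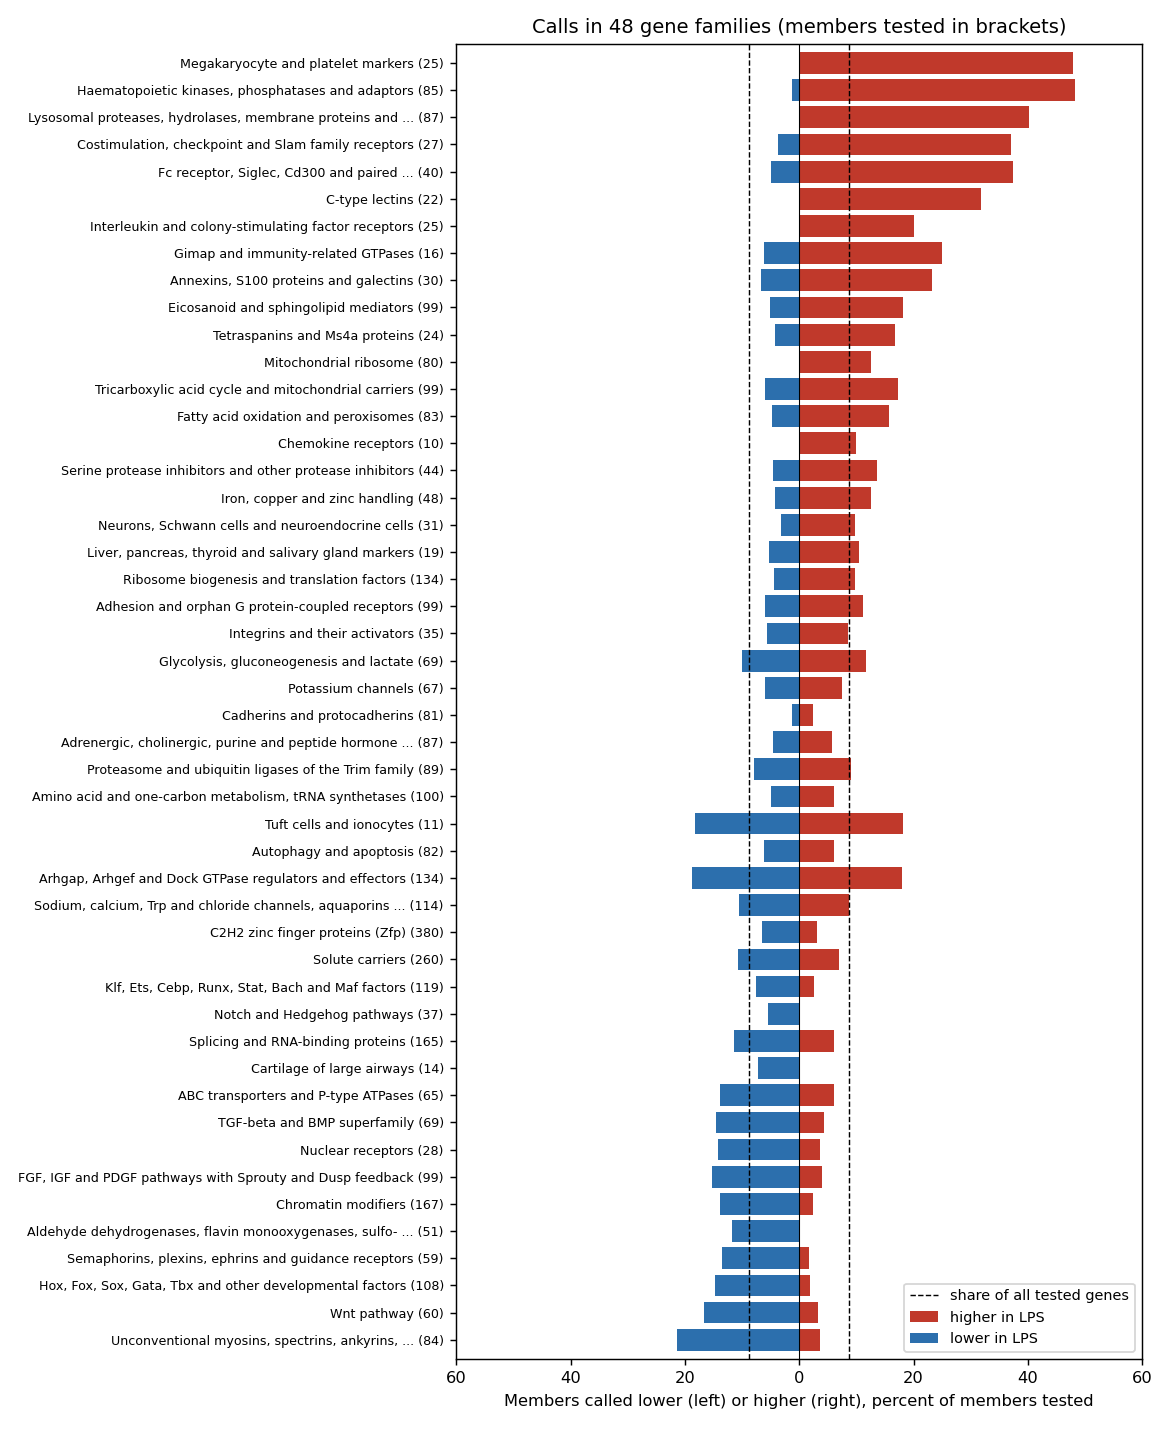
For each of the 48 gene families the percentage of tested members called higher (red, to the right) and lower (blue, to the left) is drawn, with dashed lines at the shares of all tested genes, 8.76% and 8.75%, and the number tested in brackets. Platelet, haematopoietic signalling, lysosomal and leukocyte receptor families reach furthest to the right, and giant scaffolds, GTPase regulators of the cytoskeleton, tuft cell markers and the Wnt pathway to the left.

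Markers of cells that are rare in lung samples, or that could enter with neighbouring tissue, were examined as separate lists. Of 31 neuronal, Schwann and neuroendocrine markers 3 were higher and 1 lower. Stmn2, a microtubule regulator of neurons, measured 26.7, 21.8 and 17 CPM in control libraries and 40.5, 47.6 and 54.1 CPM in LPS libraries (log2 fold change 1.12 ± 0.18 SE, adjusted p = 0.00576), and Pmp22, a myelin protein that endothelium and fibroblasts also make, 314, 256 and 226 CPM in control libraries and 399, 427 and 461 CPM in LPS libraries (log2 fold change 0.69 ± 0.14 SE, adjusted p = 0.012). Both were higher in every LPS library, Pmp22 losing its call without control 2, and the neuropeptide Gal was higher (1.54 ± 0.38, lost without control 1, control 2, control 3 or LPS 3) while Calca of neuroendocrine cells was lower (-2.02). Summed levels of this list were 477 to 565 CPM in control and 663 to 740 CPM in LPS libraries, and the higher count was 1 without control 2. Tuft cell and ionocyte markers summed to 175 to 187 CPM in control and 172 to 178 CPM in LPS libraries, with Stap1 (1.0 ± 0.17) and Ltc4s higher and Cftr and Avil lower among 11, the lower count being 1 without LPS 2. Of 14 cartilage markers, summing to 386 to 477 CPM in control and 348 to 411 CPM in LPS libraries, Cytl1 was lower (-1.09 ± 0.20). Of 51 liver, pancreas, thyroid and salivary gland markers, 18 had no read in the 6 libraries and 19 were tested. Amy1 was lower (-0.61 ± 0.18) and Pnliprp1 was higher at under 1 CPM, the call of the former being lost without control 1, control 2, control 3, LPS 2, LPS 3, LPS plus RSBD 1 or LPS plus RSBD 3 and that of the latter without each of the 9 libraries, while Apobr (1.54 ± 0.32), a macrophage receptor for lipoprotein, matched this list by symbol only. The calls of Calca and Apobr were lost in 1 or more of the fits that left out a library.

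Neighbouring genes were at times called together. Ordered along the chromosomes, the tested genes held 36 runs of 3 or more neighbours called in the same direction, 17 higher and 19 lower. The longest were 5 runs of 4 genes, described here with all members, set-aside themes included. On chromosome 19, Ms4a4a, Ms4a4c, Ms4a4b and Ms4a6c (from chr19:11375523-11392790 to chr19:11469366-11482192), 4-span membrane proteins of leukocytes, were higher. Ms4a4c measured 8.62, 7.61 and 8.11 CPM in control libraries and 33.8, 27.1 and 30.4 CPM in LPS libraries (log2 fold change 1.91 ± 0.25 SE, adjusted p = 0.00326) and Ms4a4b 43, 39.8 and 30.7 CPM in control libraries and 75, 72.1 and 63.2 CPM in LPS libraries (log2 fold change 0.89 ± 0.25 SE, adjusted p = 0.0411). All LPS values were above the controls, and the call of Ms4a4b was lost without control 1, control 2, control 3, LPS 1, LPS 2 or LPS 3, that of Ms4a4a (1.96 ± 0.53) without control 1, control 2, control 3, LPS 1, LPS 2, LPS 3 or LPS plus RSBD 2 and that of Ms4a6c (1.52 ± 0.36) without control 2, control 3, LPS 1, LPS 2 or LPS plus RSBD 2. On chromosome 7, Rps9 (0.54), Pirb (1.39), Gm15448 (2.02) and Pira2 (1.52) were higher, of which the last 3 are near-identical paired receptors among which reads may be misassigned. The calls of Rps9 and Gm15448 were lost without control 2, control 3 or LPS 2, that of Pira2 without control 2 or LPS 2 and that of Pirb without control 1, control 2, control 3, LPS 1, LPS 2, LPS plus RSBD 1 or LPS plus RSBD 2.

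On chromosome 16, Tmprss2 (chr16:97564682-97611195), a protease of airway epithelium that cleaves viral glycoproteins, measured 155, 177 and 205 CPM in control libraries and 95.1, 124 and 118 CPM in LPS libraries (log2 fold change -0.67 ± 0.14 SE, adjusted p = 0.0139). Its neighbours Ripk4, a kinase of epithelial differentiation (-0.99 ± 0.14), Prdm15 (-0.65 ± 0.13) and C2cd2 (-0.35 ± 0.10) were lower too. Tmprss2 was lower in every LPS library but lost its call without control 3, and C2cd2 without control 1, control 3, LPS 1, LPS 2, LPS 3, LPS plus RSBD 1 or LPS plus RSBD 2. On chromosome 3, Rbm46 (-1.81 ± 0.35), Lrat (-2.8 ± 0.33), Fgg (-3.56 ± 0.53) and Fga (-2.55 ± 0.53) were lower. Lrat, which stores retinol as ester, measured 340.3, 269 and 172 CPM in control libraries and 54.5, 24.9 and 32.7 CPM in LPS libraries, and Fgg, the gamma chain of fibrinogen, 15.6, 18 and 12.3 CPM in control libraries and 1.11, 1.47 and 1.27 CPM in LPS libraries. The groups were far apart in both, with the call of Rbm46 lost without LPS 2 and Fga without control 2 or LPS 2. On chromosome 2, Tubgcp4 (-0.41 ± 0.11), Trp53bp1 (-0.34 ± 0.09), Map1a (-0.91 ± 0.17) and Ppip5k1 (-0.52 ± 0.11) were lower. The models of Tubgcp4 and Trp53bp1 overlap, as do those of Map1a and Ppip5k1, so reads may be assigned to either gene of a pair. Map1a was called in all 9 fits that left out 1 library, Tubgcp4 was lost without control 1, control 2, control 3, LPS 2, LPS 3 or LPS plus RSBD 1, Trp53bp1 without control 2, control 3, LPS 2 or LPS 3 and Ppip5k1 without control 3 or LPS 2.

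Over all 180 genes selected by the rule on size, p, family and run, 112 were called in every one of the 9 fits that left out 1 library. Of all 2647 called genes, 602 were. The rule favoured large changes and small p, so the share among the selected genes does not stand for the calls in general.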

How the data were processed

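Strand-specific libraries of mRNA from mouse lung were sequenced as paired 150 bp reads, per the labels' protocols. The submitters' processing notes name fastp 0.23.2, HISAT2 2.2.1, StringTie 2.2.0, DESeq2 1.38.3 and the build mm10/GRCm38. The sources used here give neither the counting program nor the annotation release. The authors deposited a table of expected counts per gene, all whole numbers and used unrounded, and a table of TPM, which is scaled per library and served for alternatives only. Total counts ranged from 26959662 to 36113905 over the 9 libraries.

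Counts of all 9 libraries were fitted with edgeR 4.0.16 (R 4.3.3; TMM factors, filterByExpr with a minimum count of 10 and a total of 15, robust quasi-likelihood F test of LPS minus control), so that 3 groups shared 1 estimate of the spread. P-values were adjusted by Benjamini-Hochberg over all 15636 genes tested, and a gene was called at an adjusted p under 0.05. Errors are SE of the log2 fold change, taken as its size divided by the square root of F. CPM values use TMM-scaled library sizes. The fit was tested on simulated data. Alternatives were other scaling factors, no filter, 6 libraries, a replicate block, DESeq2 1.42.0, limma 3.58.1 on log2(TPM + 1) and log2(TPM + 0.1), and leaving out each library. Chromosomes X and Y were left out.

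The members, gene lists and themes were chosen with earlier results of these data known, and the lists of other cell types likewise. Named by rule were the 12 largest increases and decreases outside the themes. They were limited to genes without overlap between groups and with at least 5 CPM in the higher group. The 5 smallest p in each direction were picked under the same limits. The rule also named the 3 called genes of smallest p in each of 48 families, and all genes of the 5 longest runs of neighbours. Some genes that this rule selects are not reported here. Other genes were named after their values were seen, as were subgroups within families. Promoters are from RefSeq (GRCm38.p6), the 250 bases before the start nearest the deposited gene's 5′ end, for 11809 of the 15121 genes.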

Additional observations from a re-analysis of the deposited data

How the results depend on the processing

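The 2647 calls became 2637 with RLE and 2576 with upper quartile factors, 2404 without the filter on low counts, 2346 with the 6 control and LPS libraries alone and 3674 with DESeq2. On log2(TPM + 1) there were 680 higher and 1313 lower calls, on log2(TPM + 0.1) 691 and 1305, and on log2(TPM + 1) without a filter 490 and 994, or 1484 in all. Leaving out 1 library at a time gave 754 to 2770 calls, 399 to 1414 of them higher and 355 to 1356 lower. Why single libraries weigh so much was not tested. With the replicate number as a block 1775 genes were called, 848 higher and 927 lower. The labels do not state that the numbers pair the libraries. Deviations of same-numbered libraries from their group means correlated at -0.215 to 0.122, and libraries did not all correlate best with their own number. Such deviations sum to 0 within each group of 3, so these correlations cannot decide whether the numbers pair libraries. No direction of the 180 genes selected by rule reversed under any of these settings in which the gene was tested. All 180 were called in the main fit, and the rules on size and p admitted only groups without overlap. A reversal was therefore unlikely by selection, and its absence does not measure how stable the calls are. Kcnb2, Pnliprp1 and Tacr1 were not tested on the filtered log2(TPM) scales. Of the 180 genes, 179 were called by DESeq2, 180 with RLE and 177 with upper quartile factors, 170 with 6 libraries, 171 without the filter, 159 with the block and 155 on log2(TPM + 1), and 122 without LPS 2 and 128 without control 2. Medians over families turned sign on log2(TPM + 1) for tetraspanins, glycolysis, the tricarboxylic acid cycle, fatty acid oxidation, amino acid metabolism, hormone and orphan receptors, ribosome biogenesis, proteasome, autophagy, neuronal and tuft cell lists. With 3 libraries a group the median SE was 0.15 on the log2 scale. The change needed for a call varied with a gene's SE and was well above it. Ankrd22, just under the threshold, had a log2 fold change of 2.28 and an SE of 0.69. Changes larger than the median SE may thus have been missed.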
